A study of Mus musculus with 2 samples.

Results

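The replication-dependent histone genes of mouse were described in DNase-seq data of adipocytes differentiated in vitro for 8 days from 3T3-L1 cells, an established line of mouse preadipocytes. DNase-seq cuts chromatin with the nuclease DNase I, and regions cut often are those where DNA is accessible. There were 2 libraries, biological replicates 1 and 2 of 1 group, so no groups were compared and no test was made. Both carry the strain label C57BL/6J and the same donor record, although 3T3-L1 cells are usually said to come from Swiss mice, and each combined more than 1 technical replicate. The genes were chosen by name, as protein-coding GENCODE M21 genes whose symbols begin with Hist1h, Hist2h, Hist3h or Hist4h, and not by any measured value. They number 67 of 21938 protein-coding genes: 54 in the Hist1 cluster on chromosome 13, 10 in the Hist2 cluster on chromosome 3, 2 in the Hist3 cluster on chromosome 11, and Hist4h4, which lies alone on chromosome 6. By product they are 6 linker histone H1 genes, 18 H2A, 18 H2B, 12 H3 and 13 H4 genes.

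These genes supply the histones that package newly copied DNA, and their transcription and mRNA levels are known to rise in S phase and fall when replication stops. Most lack introns, and their mRNAs carry a conserved stem-loop, bound by the stem-loop binding protein Slbp, where other mRNAs carry a poly(A) tail. The coactivator Npat gathers at the clusters in histone locus bodies, the zinc-finger protein Hinfp binds an element of H4 promoters, and the octamer-binding factor Pou2f1 (Oct-1) acts on H2B promoters. 3T3-L1 cells are known to divide again early in differentiation and to leave the cycle as they fill with lipid. No RNA was measured here, so the values below concern accessibility alone.

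The deposited lists hold 133695 peaks in replicate 1 and 216556 in replicate 2, and 117685 and 185029 hotspots, which are broader accessible regions. Adipocyte identity was checked first: all 8 adipocyte markers, among them Adipoq and Fabp4, had a promoter peak in both libraries, and 0 of 10 markers of blood, endothelium, muscle, liver and pluripotent cells did, with Pecam1 having one in replicate 2 only. No source used here gives the number of reads behind these lists, so the depth is unknown, and a gene without a peak is only one where none was called. The value the authors gave each peak runs from 1 to 150 in whole numbers with a scale that is not stated. It is therefore given here with its percentile, the percent of peaks of the same library that have a lower value.

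The sequences below show what the text turns on: the short stretches shared by head-to-head H2A and H2B genes, with and without a peak. They were read from the GRCm38 reference genome, 5′ to 3′ on the plus strand. Capitals mark the letters CCAAT, the letters TATAAA or TATAAG and the letters ATTTGCAT on either strand, so that a match to the minus strand shows as its reverse complement. The first are the core letters bound by NF-Y, the next those of the TATA box, and the last the octamer of H2B promoters. The stretch between Hist1h2ac and Hist1h2bc spans chr13:23683949-23684198, that of Hist1h2ah and Hist1h2bk chr13:22035569-22035868, that of Hist1h2bq and Hist1h2ao chr13:21810198-21810464, and that of the testis genes Hist1h2ba and Hist1h2aa chr13:23934159-23934458.
Hist1h2ac-Hist1h2bc: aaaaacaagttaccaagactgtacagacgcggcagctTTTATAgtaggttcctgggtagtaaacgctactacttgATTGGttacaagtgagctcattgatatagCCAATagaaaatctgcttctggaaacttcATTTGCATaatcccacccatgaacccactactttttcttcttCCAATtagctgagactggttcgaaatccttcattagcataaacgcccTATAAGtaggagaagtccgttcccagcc
Hist1h2ah-Hist1h2bk: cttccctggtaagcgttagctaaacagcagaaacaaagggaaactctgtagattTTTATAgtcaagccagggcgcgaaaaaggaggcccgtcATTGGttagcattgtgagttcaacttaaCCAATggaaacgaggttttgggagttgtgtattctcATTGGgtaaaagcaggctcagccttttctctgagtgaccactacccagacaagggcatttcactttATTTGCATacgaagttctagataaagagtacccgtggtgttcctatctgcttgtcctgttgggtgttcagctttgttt
Hist1h2bq-Hist1h2ao: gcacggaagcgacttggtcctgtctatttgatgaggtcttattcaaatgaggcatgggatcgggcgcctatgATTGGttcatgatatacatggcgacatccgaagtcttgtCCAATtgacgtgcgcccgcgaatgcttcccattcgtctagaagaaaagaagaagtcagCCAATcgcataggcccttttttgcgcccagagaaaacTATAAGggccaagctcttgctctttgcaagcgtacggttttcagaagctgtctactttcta
Hist1h2ba-Hist1h2aa: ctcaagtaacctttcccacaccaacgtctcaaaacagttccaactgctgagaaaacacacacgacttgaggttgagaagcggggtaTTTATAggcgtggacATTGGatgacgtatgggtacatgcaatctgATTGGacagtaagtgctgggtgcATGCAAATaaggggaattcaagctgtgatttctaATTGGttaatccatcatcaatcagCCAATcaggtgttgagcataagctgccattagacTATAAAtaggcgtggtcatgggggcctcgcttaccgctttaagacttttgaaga

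Both libraries had a peak over bases 68 to 217 of the Hist1h2ac-Hist1h2bc stretch, counted from 1 at the printed 5′ end, and over bases 88 to 237 of the Hist1h2ah-Hist1h2bk stretch. All 3 CCAAT matches and the octamer of each stretch lie within these peaks. Neither library had a peak or a hotspot in the other 2 stretches, which hold 3 and 4 CCAAT matches.

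Most histone gene promoters were accessible. A peak within 1000 bp of an annotated start site was present in both libraries at 54 of the 67 genes (80.6%), against 57.2% of all protein-coding genes by the same rule. Replicate 1 had such a peak at 54 genes and replicate 2 at 56, and 11 genes had none in either. With hotspots in place of peaks the count was 55 of 67 (82.1%), against 57.6% of all protein-coding genes. The share was above the background in every cluster that holds more than 2 genes, with 43 of 54 in Hist1 and 9 of 10 in Hist2. By class it was 11 of 12 for H3, 11 of 13 for H4, 15 of 18 for H2A, 14 of 18 for H2B and 3 of 6 for H1. Neighbouring members are not independent: 31 of the 106 promoter peaks of replicate 1, and 32 of 116 in replicate 2, lay within reach of more than 1 member.

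The peaks at these promoters were strong ones in both libraries. The strongest promoter peak of the 54 genes had median values of 103.5 (replicate 1) and 137.5 (replicate 2), or percentiles of 93.7 and 95.9, against 91.7 and 94.9 for all protein-coding genes with a promoter peak in both. The percentile was above 90 at 39 of the 54 genes in replicate 1 and at 45 in replicate 2, against 55.2% and 71.2% of those protein-coding genes. The lowest members stood at 43.3 and 60 and the highest at 99 and 99.7. The strongest peak lay at an overlapping position in both libraries at 52 of the 54 genes. Within the same 1000 bp, a hotspot at the ceiling of 100 on the −log10 q scale was present at 52 genes in replicate 1 and 53 in replicate 2, so that hotspots could not rank the promoters.

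**Figure D1:**
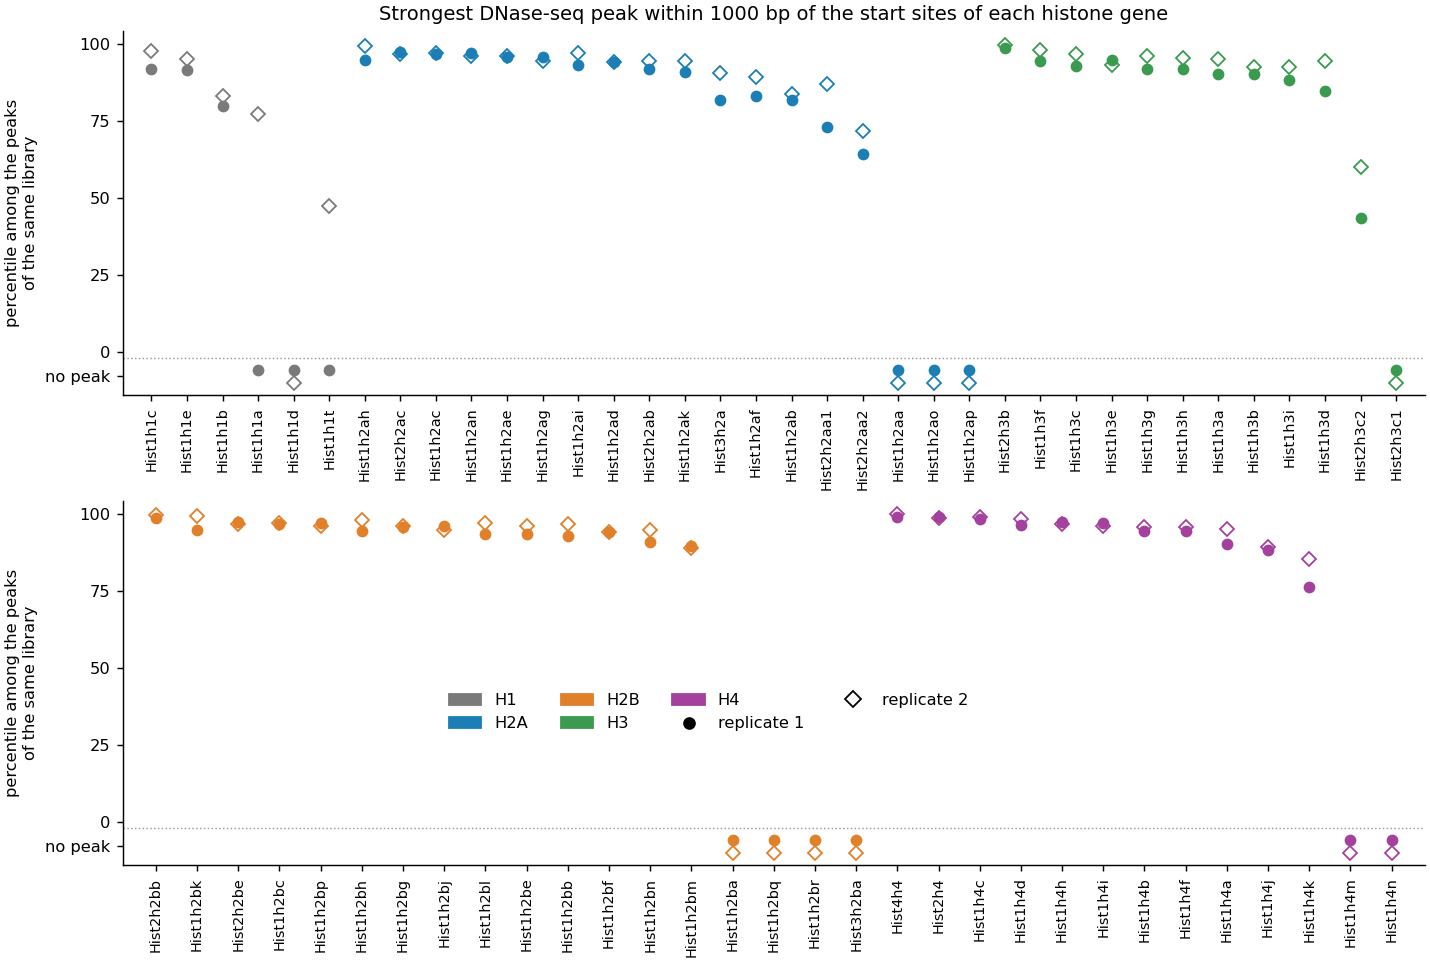
Percentile of the strongest peak within 1000 bp of the start sites of each of the 67 histone genes, among all peaks of the same library (filled circles, replicate 1; open diamonds, replicate 2; colours, histone class). Symbols under the dotted line had no promoter peak. Most genes of each core histone class lie above the 80th percentile in both libraries, and 13 genes have a symbol under the line for at least 1 library.

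H4 genes, which encode one of the most conserved proteins known, had the highest class median in replicate 1, at the percentile 96.3, and stood at 96.1 in replicate 2, beside 96.3 for H2B genes there. Hist4h4 (chr6:136801553-136804415) had peaks of 124 and 149, at the percentiles 98.8 and 99.7. Hist2h4, in the chromosome 3 cluster, had 125 and 145, at 99 and 98.6. Hist1h4c followed with 120 and 146, at 98.2 and 98.9. These 3 genes were close to the top of both lists, and their order changed between the libraries. By the strongest promoter peak, the weakest H4 genes with a peak were Hist1h4j, with 90 and 122, and Hist1h4k, with 70 and 114. The 90 of Hist1h4j was centred at -773 bp, well before its start. Its replicate 1 peak at -53 bp had only 64, at the percentile 71. By the strongest peak, Hist1h4k was lowest of the 11 H4 genes in both libraries.

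H2B genes had medians of 94.4 and 96.3, and H2A genes, many of which share a peak with an H2B partner, 93.2 and 94.5. Hist2h2bb was the strongest H2B gene, with 122 and 148, at the percentiles 98.5 and 99.5. The same peak lies 937 bp after the start of the H3 gene Hist2h3b in replicate 1, and counts there as its strongest peak too. The peak nearest the start of Hist2h3b itself was centred at -83 bp in replicate 1 and -63 bp in replicate 2 and had the values 105 and 134. Hist1h2ah and Hist1h2bk share a peak of 106 and 147, at 94.6 and 99.2, and Hist2h2ac shares one of 116 and 139 with Hist2h2be. By the mean percentile of both libraries, the lowest H2B genes with a peak were Hist1h2bn, with 96 and 134, and Hist1h2bm, with 93 and 121, which is at the percentiles 89.5 and 88.8. By mean percentile, the lowest H2A genes were Hist2h2aa1, with 66 and 117, and Hist2h2aa2, with 57 and 93.

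H3 genes had medians of 91.7 and 94.9. The strongest peak of Hist1h3f, of 105 and 143, is the one it shares with its H2B neighbour Hist1h2bh. It was centred at -561 and -541 bp from the annotated start of Hist1h3f. A nearer peak of 97 and 134, at 91.3 and 94.5, was centred 339 bp after that start. The coding start lies 433 bp after the annotated one. Hist1h3d had 83 and 134, at the percentiles 84.7 and 94.5, one of the wider gaps between the libraries. Hist2h3c2 was the weakest of all 54 genes, with 41 and 79, at 43.3 and 60, and that peak was centred 856 bp after its start. Linker histone H1 genes had medians of 91.3 and 94.9 over only 3 genes. Hist1h1c had 98 and 142, Hist1h1e had 97 and 135, and Hist1h1b had 75 and 110, at the percentiles 79.7 and 82.9. The 135 of Hist1h1e in replicate 2 was centred 807 bp after its start, and its peak 7 bp after the start had 133 there. Hist1h1b was the lowest of the 3 in both libraries.

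Over the 54 genes the percentile was higher in replicate 2 at 43 and lower at 11, with differences from -1.4 to 16.7 points. All protein-coding genes also had a higher median in replicate 2, and its peak list is the longer one. The largest difference was at Hist2h3c2, the weakest of them.

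The accessible stretch nearest the start mostly sat just before the gene. The peak nearest the start was centred at a median of -92.5 bp in replicate 1 and again at -92.5 bp in replicate 2, where negative is before the start, against -57 and -52 bp for all protein-coding genes. In replicate 1 it was centred within 100 bp before the start at 25 of 54 genes (46.3%), near the 41.3% of all protein-coding genes with a promoter peak. It was centred from 100 to 200 bp before the start at another 23 (42.6%), against 16.3%. By class, the median was -137 and -122 bp for H2B, -115 and -127 bp for H2A, -65 and -63 bp for H3, and -57 and -60 bp for H4. For the H1 genes with a peak the median lay at the start itself, 3 and 14 bp after it. For 13 of the 67 genes the annotated start is the first coding base, so that no 5′ untranslated stretch is annotated there.

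Hotspots over the main start were narrow. In replicates 1 and 2 they lay over 34 (50.7%) and 36 (53.7%) of the 67 main starts, against 43.9% and 47.2% for all protein-coding genes. Their median width was 463 bp in replicate 1 and 523.5 bp in replicate 2, against 976 and 1433 bp for all protein-coding genes. The widest were 2023 and 3086 bp, both over the main annotated start of Hist1h2be, which lies inside the gene Hist1h1e and far from the Hist1h2be coding start. Among genes with a peak in both libraries, the 250 bases before the start were in a hotspot at 84.4% of bases in replicate 1 and 86.2% in replicate 2. From 0 to 400 bases after the start only 25.6% and 28.9% were. Farther on the cover rose again, to 40.2% and 59.1% from 600 to 650 bases after the start.

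**Figure D2:**
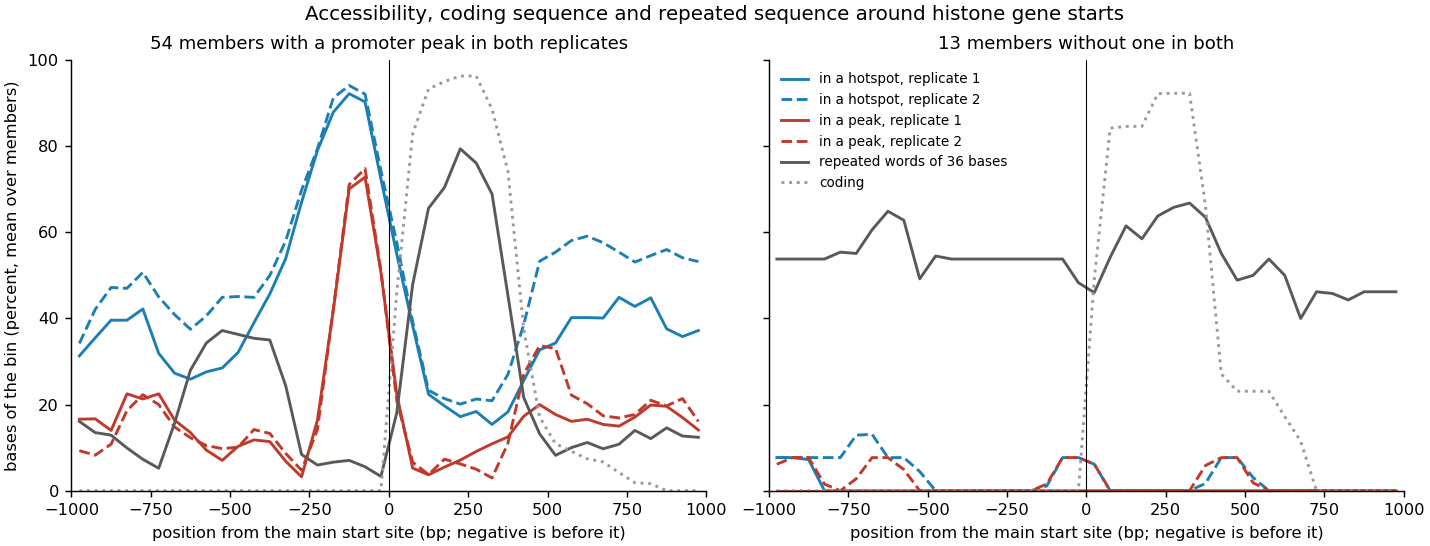
Mean percent of bases in a hotspot (blue), in a peak (red), in coding sequence (grey dots) or starting a word of 36 bases that occurs more than once in the genome (dark grey) in bins of 50 bp around the main start, for the 54 members with a promoter peak in both libraries and the 13 others. Accessibility peaks just before the start and falls where coding and repeated sequence begin.

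The fall over the first 400 bases coincides with the coding sequence, which makes up 84.1% of those bases. Histone coding sequences are alike: 59% of the 36-base words starting there occur more than once in the 21 chromosomes, against 5.7% in the 250 bases before the start. A read no longer than such a word has no unique place, and no source used here says how the authors treated them. The part of repeated sequence in the low hotspot cover there was not tested.

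Of the 13 genes without a promoter peak in both libraries, 6 form 1 inverted copy. Hist1h2bq, Hist1h2ao and Hist1h4m (chr13:21806612-21812147) lie opposite Hist1h2br, Hist1h2ap and Hist1h4n (chr13:21831767-21837530), and neither copy held a peak or a hotspot in either library. The 300 bases before the coding starts are identical at 300 of 300 positions for the H2B and the H2A pair and at 299 of 300 for the H4 pair. The spacer of 19.6 kb between the copies held 4 peaks in replicate 1, with values from 21 to 25, and 8 in replicate 2, with values from 36 to 68, against library medians of 45 and 69. Within 500 bp of the start, 93.6% to 100% of the words of these 6 genes are repeated.

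A like pattern held in the Hist2 cluster, where Hist2h2aa1 and Hist2h2aa2, and Hist2h3c1 and Hist2h3c2, are also near-identical copies, at 298 and 299 of 300 positions. Hist2h3c1, with 96.4% repeated words, had no peak in either library. Its copy Hist2h3c2, at 94.9%, had only the weak peak after its start. Hist2h2aa1, at 67.3%, and Hist2h2aa2, at 69.6%, had their peaks centred at -306 and -355 bp from the start in replicate 1. The 10 members with the most repeated words were thus 7 without a peak and the 3 with the lowest percentiles by the mean of both libraries. In replicate 2 alone, Hist2h2aa1 stood above Hist1h1b, Hist1h2ab and Hist1h4k.

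**Figure D3:**
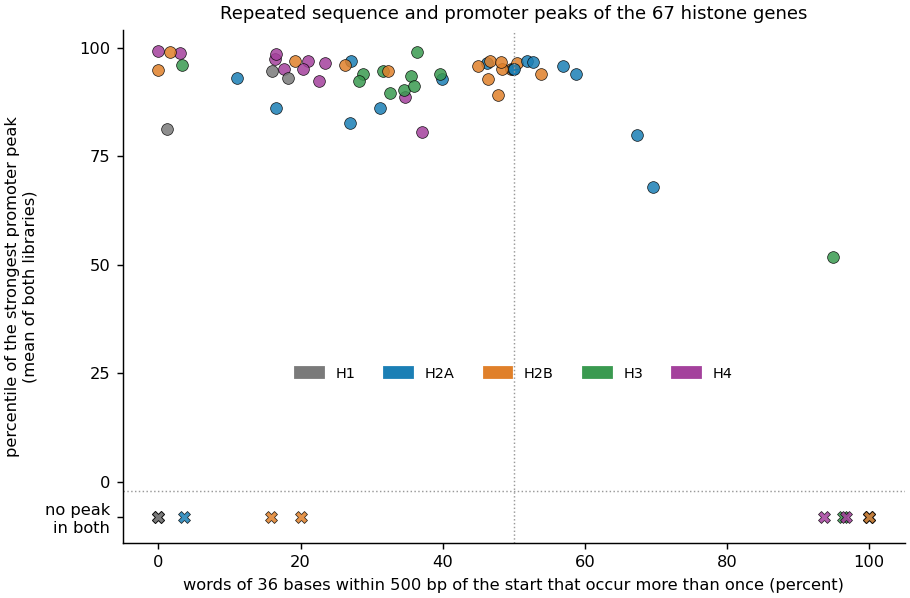
Percent of 36-base words within 500 bp of the main start that occur more than once in the genome (x axis) and mean percentile over both libraries of the strongest promoter peak (y axis) for the 67 members; crosses under the dotted line had no peak in both. The 3 circles farthest right are Hist2h2aa1, Hist2h2aa2 and Hist2h3c2, and 7 crosses lie at 93.6% or more.

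Over all members the median share of repeated words was 34.5%, against 0% for all protein-coding genes, and 17 of 67 members (25.4%) had at least 50%, against 6.8%. In that repeated class 10 of 17 members had a peak in both libraries, against 6.37% of the 1492 protein-coding genes there. In the rest, 44 of 50 members had one, against 60.9% of 20446 protein-coding genes. The part of repeated sequence in the missing peaks was not tested.

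The other 6 genes without a peak in both have at most 20.1% repeated words. Hist1h1t, Hist1h2ba and Hist1h2aa are known to be expressed in the testis. Hist1h2ba and Hist1h2aa had no peak in either library, and Hist1h1t had 2 promoter peaks in replicate 2 only, the stronger with the value 67, at the percentile 47.2. Hist1h1a, a linker histone of dividing cells, had 2 in replicate 2 only. The stronger, with the value 101, at 77.3, was centred at -915 bp, closer to the start of Hist1h3a. The other, centred at -35 bp, had 55, at 30.7. Both libraries had a hotspot within 1000 bp of the Hist1h1a start, but only replicate 2 had one over it. Hist3h2ba, on chromosome 11, had none. Hist1h1d had none within 1000 bp of its annotated start, which lies 1828 bp before the coding start. A peak of 104 and 136, at 93.9 and 95.3, was centred at -39 bp from the coding start. The part of the annotation in the missing promoter peak was not tested. Hist1h2be, which has promoter peaks in both libraries, also has a distant main annotated start, 35138 bp before its coding start and inside Hist1h1e. A peak of 111 and 133 was centred at -75 bp from its coding start.

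Divergent pairs, in which an H2A and an H2B gene start back to back, shared 1 peak. There were 13 pairs of members with starts within 1000 bp of each other: 12 H2A-H2B pairs and Hist1h2bh-Hist1h3f. Their starts were 176 to 660 bp apart, with a median of 279 bp. In 10 pairs each library had exactly 1 peak between or over the starts, centred a median of 28 and 19.5 bp from the midpoint, at the median percentiles 95 and 96.3. Members outside pairs that had a peak in both had medians of 91.7 and 94.9. The 3 pairs without a peak were the 2 in the inverted copy and the testis pair Hist1h2ba-Hist1h2aa. In all, 20 of 26 paired and 34 of 41 unpaired members had a promoter peak in both libraries.

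Hist1h2ah-Hist1h2bk had the strongest shared peak by mean percentile beside Hist2h2ac-Hist2h2be: 106 and 147 for the former, centred 12 bp from the midpoint in both libraries, and 116 and 139 for the latter. Hist1h2ac-Hist1h2bc had 113 and 140, centred 17 bp from the midpoint in both. At the lower end were Hist1h2ak-Hist1h2bn, with 96 and 134, Hist1h2bf-Hist1h2ad, with 104 and 133, and Hist1h2bl-Hist1h2ai, with 102 and 140. The other 4 pairs with a peak ranged between these. Hist1h2bh-Hist1h3f differed in shape: its annotated starts are 660 bp apart, and the coding start of Hist1h3f lies 433 bp further on. The peak of 105 and 143 was centred at -231 and -211 bp from the midpoint, toward Hist1h2bh. The hotspot over Hist1h2bh-Hist1h3f was 469 bp wide in replicate 1 and 680 bp in replicate 2. Across all pairs with a peak, the hotspot was 162 to 482 bp wide in replicate 1.

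Outside the promoters, the clusters differed in what else was accessible. The Hist1 span of 2220 kb (chr13:21714763-23935851, members plus 1000 bp at each end) held 173 peaks found in both libraries, or 0.779 per 10 kb, against 0.449 for chromosome 13 as a whole. Its members lie in 4 blocks separated by over 100 kb, with 1.94, 12.4, 2.63 and 0 shared peaks per 10 kb. The block of 12.4 is only 10.5 kb long and holds 5 genes, among them Hist1h4i and the Hist1h2ah-Hist1h2bk pair. The block of 0 holds the testis pair alone. The Hist2 span of 52.3 kb (chr3:96218865-96271132) had 2.68 shared peaks per 10 kb, against 0.406 for chromosome 3. The Hist3 span of 9.91 kb (chr11:58947920-58957830) had 3.03, against 0.671 for chromosome 11.

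**Figure D4:**
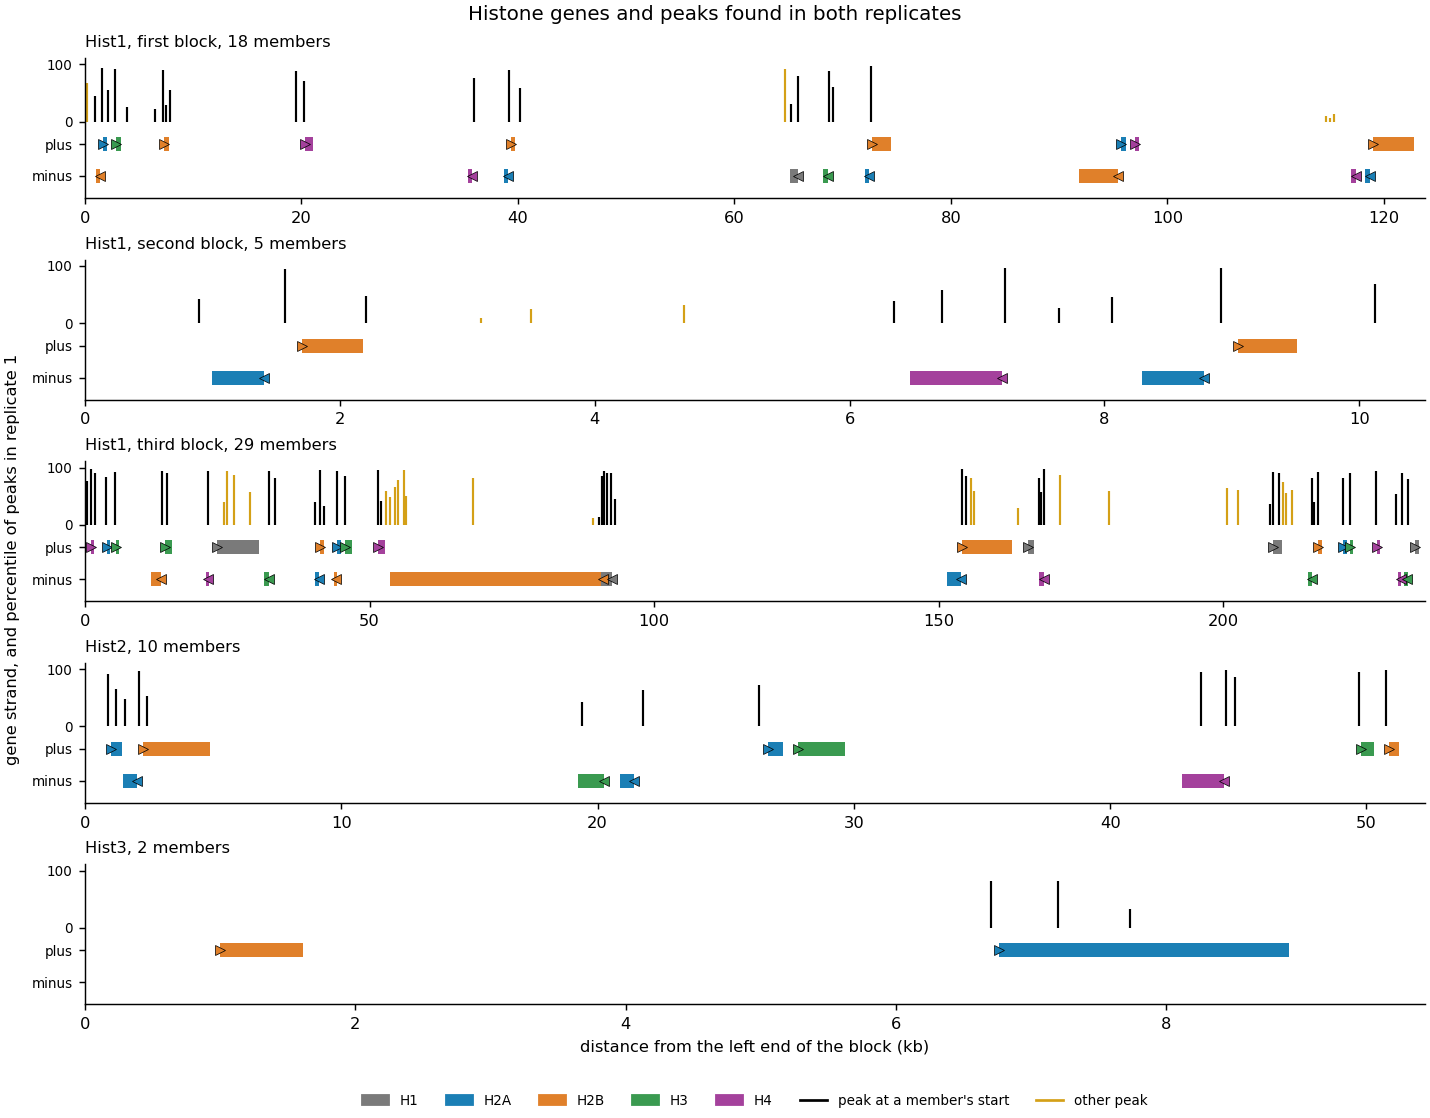
Histone genes by strand (bars, coloured by class, with an arrowhead at the main start) and peaks found in both libraries (vertical lines, height the percentile in replicate 1, from 0 to 100) along the gene blocks with over 5 kb, in kb from the left end of each block. Black lines are within 1000 bp of a member's start; all 14 Hist2 and 3 Hist3 lines are black, and the copied genes at the right of the first block have none.

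All 14 shared peaks of Hist2 and all 3 of Hist3 lay at a member's start, that is, within 1000 bp of it. Bola1 starts beside Hist2h2ab and Trim17 beside Hist3h2a, so the peaks there lie at a gene of another kind too. Hist3h2a had peaks of 78 and 125 at best, at 81.7 and 90.6, and 77 and 117 at the start itself. Hist2h2ab had 98 and 134, at 91.7 and 94.5. In Hist1, 69 of 173 lay at a member's start (39.9%), 13 inside a member, 7 at the start of another protein-coding gene, 2 inside one and 82 outside every protein-coding gene.

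Of those 82, 55 lay within 500 bp of a RefSeq tRNA gene, and 44 overlapped one. The Hist1 span holds 77 tRNA genes, short genes transcribed by RNA polymerase III, and 44 of them had a peak over the gene in both libraries. It also holds 36 Vmn1r vomeronasal receptor genes, pheromone receptors of sensory neurons, of which 0 had a promoter peak in both. Of 13 other protein-coding genes, 4 did: Zfp184, Zfp322a, Abt1 and Hfe. The 3 strongest shared peaks outside every protein-coding gene and away from every protein-coding start, by value in replicate 1, were at chr13:23432676-23432825 (110 and 139), chr13:23432936-23433105 (108 and 133) and chr13:23430856-23431045 (104 and 138). The first lay 165 bp and the third 367 bp from a tRNA gene, and the second overlapped one.

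Promoter letters differed by class. In the 250 bases before to 50 after the main start, on either strand, CCAAT was found in 83.6% of members and 37.8% of all protein-coding genes, and at 2 or more places in 70.1% and 11.8%. TATAAA or TATAAG was found in 74.6% of members and 18% of all. ATTTGCAT was found in 8 of 18 H2B and 7 of 18 H2A promoters and in no other member, against 1.69% of all genes. Since divergent pairs share a promoter, 1 match can count for both of its genes. CCAAT occurred in all 18 H2A and all 18 H2B promoters, at 2 or more places in each, but in 4 of 13 H4 promoters.

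**Figure D5:**
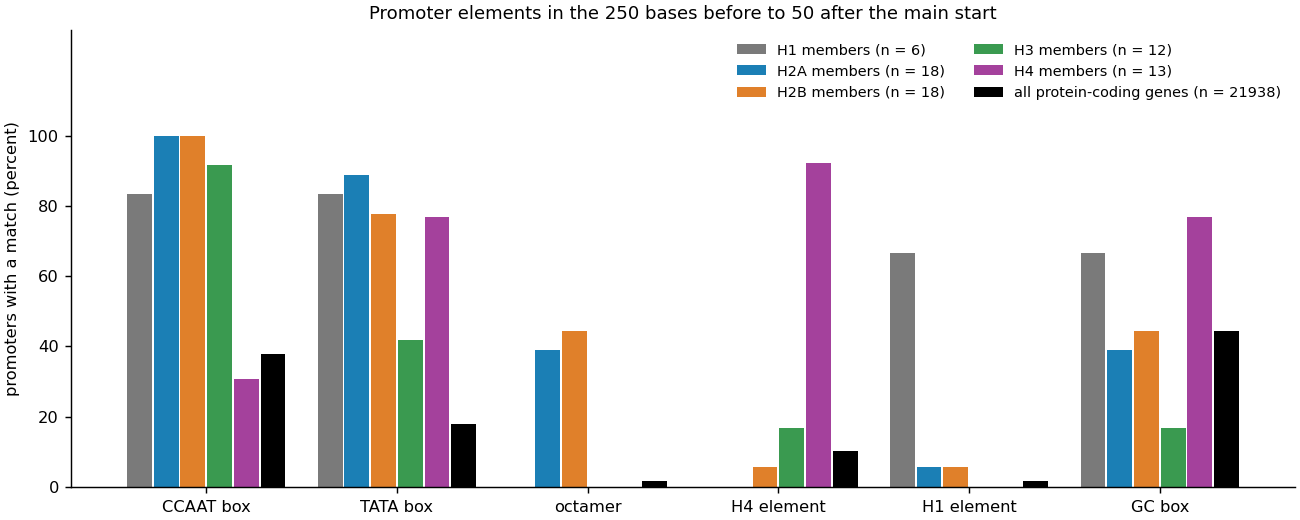
Percent of promoters (250 bases before to 50 after the main start, either strand) that hold the letters of the CCAAT box, TATA box, octamer, H4 element, H1 element and GC box spelled out in the text, by histone class and for all 21938 protein-coding genes. The octamer is found among H2A and H2B members only, and the H4 element in 12 of 13 H4 members.

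H4 promoters instead held GGTCCG, letters of the element that Hinfp binds, in 12 of 13, against 10.3% of all genes. In the 300 bases before the coding start it was also in 12 H4 genes, beginning 55 to 85 bases before that start, with a median of 80. AAACACAA, the H1 element of linker histone promoters, was found in 4 of 6 H1 promoters, against 1.73% of all. GGGCGG, the letters of the GC box, was in 46.3% of members and 44.4% of all genes, and in 10 of 13 H4 promoters. Its order depended on the window: it was in 67.2% of members and 50.8% of all genes from 500 bases before to 100 after the start, and in 26.9% and 36.3% in the 150 bases before it. The median GC content of members' promoters was 45.7%, against 55.7%, while their CpG observed-to-expected ratio was 0.75, against 0.541. Among genes with a peak in both libraries the ratios were alike, at 0.75 for members and 0.744 for all protein-coding genes. The GC content of these genes was 44.8% and 60%.

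The H4 and H1 promoters below show GGTCCG (H4 genes) or AAACACAA (H1 genes) in capitals, with the letters of CCAAT and the TATA box, on the strand of the gene up to the base before the annotated start. Hist1h4c (chr13:23698455-23698604, minus strand) and Hist4h4 (chr6:136804416-136804565, minus strand) are among the strongest H4 promoters, and Hist1h4m (chr13:21811596-21811745, plus strand) lies in the copied block with no peak. Hist1h1c (chr13:23738608-23738807) and the testis gene Hist1h1t (chr13:23695614-23695813) are on the plus strand.
Hist1h4c: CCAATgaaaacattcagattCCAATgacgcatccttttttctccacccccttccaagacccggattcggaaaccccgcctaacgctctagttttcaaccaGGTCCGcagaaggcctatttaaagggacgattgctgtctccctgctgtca
Hist4h4: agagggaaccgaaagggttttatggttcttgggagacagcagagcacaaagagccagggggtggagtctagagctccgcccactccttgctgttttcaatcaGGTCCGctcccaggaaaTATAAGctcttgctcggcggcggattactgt
Hist1h4m: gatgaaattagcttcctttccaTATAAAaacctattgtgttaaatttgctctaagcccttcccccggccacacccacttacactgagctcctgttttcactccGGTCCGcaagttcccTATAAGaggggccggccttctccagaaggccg
Hist1h1c: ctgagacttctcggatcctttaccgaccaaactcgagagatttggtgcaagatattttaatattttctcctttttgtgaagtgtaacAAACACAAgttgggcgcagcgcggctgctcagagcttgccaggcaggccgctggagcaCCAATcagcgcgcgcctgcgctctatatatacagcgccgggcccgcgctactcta
Hist1h1t: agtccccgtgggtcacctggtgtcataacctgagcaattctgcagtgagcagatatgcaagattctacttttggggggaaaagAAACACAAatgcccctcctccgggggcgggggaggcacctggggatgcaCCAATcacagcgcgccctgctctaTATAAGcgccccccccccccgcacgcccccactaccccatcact

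GGTCCG begins at base 101 of the Hist1h4c stretch, 103 of Hist4h4 and 104 of Hist1h4m, counted from 1 at the printed 5′ end. In both libraries the peak covers bases 20 to 150 of the Hist1h4c stretch, and bases 41 to 150 (replicate 1) or 21 to 150 (replicate 2) of Hist4h4, so it includes the element. AAACACAA begins at base 88 of Hist1h1c, before the peak, which covers bases 129 to 200 in replicate 1 and 149 to 200 in replicate 2. Hist1h1t holds the same 8 letters at base 84 and no peak was called over this stretch in either library.

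Matches were also counted inside the strongest promoter peaks, each of 150 bp and counted once. In replicate 1, 29 of 41 such peaks of members held CCAAT (70.7%), against 30.1% of 11345 peaks of all protein-coding genes. TATAAA or TATAAG was in 15 of 41 (36.6%), against 3.61%, and GGTCCG in 11 of 41 (26.8%), against 7.7%. In replicate 2 the shares of members' 43 peaks were 65.1%, 39.5% and 27.9%. All 14 H2B peaks held CCAAT and 9 of 11 H4 peaks held GGTCCG in replicate 1. The letters were common with and without a peak: CCAAT was in 46 of 54 promoters of members with a peak in both libraries and 10 of 13 others, and TATAAA or TATAAG in 38 of 54 and 12 of 13. A match is a description of letters and not a binding site.

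The other end of the genes carries the histone stem-loop, shown here because nearly all members share it. On the sense strand, letters of the known stem-loop (a stem of 6 bases beginning GG and ending CC around a loop of 4) were found within 150 bases of the annotated gene end in 39 of 67 members (58.2%) and 0.232% of all protein-coding genes. Annotated ends can lie far beyond it: in the 150 bases after the stop codon the match was found in 65 of 67 (97%), against 0.369%, and 26 members had a match there and not near the annotated end. It began 22 to 59 bases after the stop codon, with a median of 31. Hist2h2be and Hist1h2an had no match. The most frequent forms are given with the paired stem in capitals and the loop in lower case.
form in 41 members: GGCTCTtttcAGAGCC
form in 9 members: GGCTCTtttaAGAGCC
form in 8 members: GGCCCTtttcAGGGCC
The third form was found in H4 genes, among them Hist4h4, Hist1h4k and both copies Hist1h4m and Hist1h4n.

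Genes that act on the histone genes had promoter peaks throughout. All 21 genes of histone transcription and mRNA processing had one in both libraries, against 57.2% of all protein-coding genes, at the median percentiles 95.5 and 96.1, against 91.7 and 94.9. Among them Npat had 133 and 145, Hinfp 128 and 146, and Slbp 124 and 146, each above the 98th percentile. The CCAAT-binding subunit gene Nfya had 133 and 147, and Pou2f1 had 114 and 135. Ccne2, a cyclin that drives S phase entry with Cdk2, was the lowest in replicate 1, with 75 and 127. All 8 histone chaperone genes and all 21 S phase and cycling genes also had a peak in both, the latter at the median percentiles 97.3 and 97.3.

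Replacement histone genes outside the clusters, which supply histones outside S phase, had a peak in both at 11 of 13, at the medians 97.3 and 98, above the 93.7 and 95.9 of the clustered genes. H2afv had 130 and 149, H3f3b 126 and 147, and H2afy2, a macroH2A gene, only 33 and 58. H1fx and H1fnt had none, and H1foo had 117 and 140, at the percentiles 97.6 and 96.9. Of 96 cytosolic ribosomal protein genes, 91 had a promoter peak in both (94.8%), at the medians 95.8 and 96.9. Hotspots over their starts were wider than those of the histone genes, at medians of 918 and 1240 bp. These differences between sets of genes were not tested.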

How the data were processed

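DNase-seq was measured in 2 libraries of 1 group, and the authors called regions in each library separately. The peak lists deposited by the authors hold a score of 1 to 150 per peak whose scaling no source used here states, so it served only to rank peaks within a library. Each deposited hotspot carries a −log10 q value, with a ceiling of 100. No source used here names the aligner or callers or gives the depth. The assembly is mm10 per the labels.

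Identical lines were counted once, and regions off chromosomes 1 to 19, X and Y were left out. Genes and start sites came from GENCODE M21, tRNA genes from RefSeq, and sequence from GRCm38. Any overlap of 1 bp or more with 1000 bp around any annotated start made a promoter peak. The main start was that of the best-ranked transcript. Words of 36 bases were counted on both strands. Python 3, numpy and pysam were used, and the counting steps were tested on simulated data, where 6 of 6 checks were recovered.

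Members are counted in full. Values are given for members without a peak in both libraries, the 2 highest and 2 lowest of each class, the smaller clusters, and the pairs; Hist1h4c, Hist1h4i and the named genes of other lists were chosen after their values were seen. Members and lists were chosen with earlier results of these data known.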

Additional observations from a re-analysis of the deposited data

How the results depend on the processing

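The count of 54 members with a promoter peak in both libraries ranged from 53 to 59 over windows of 500 and 2500 bp, stricter overlap, the 5′ end alone, the stronger peaks alone, a shortened longer list and hotspots, and was 54 to 56 with 1 library left out. Over these settings the share of all protein-coding genes ran from 51.4% (5′ end alone) to 63.2% (2500 bp, where the member count was 59), beside 57.2% in the main count. With the coding start in place of the annotated start, chosen after seeing the data, the member count was 55 and the share of all genes 40.1%. Over 57 alternatives, 47 values stayed close to the main one (counts and densities within 1.5 times, median percentiles within 1 SD of the 2 libraries), and 10 moved further. Ranked among all promoter peaks of protein-coding genes, of which a promoter can hold several, members' strongest peaks had median percentiles of 83.2 and 85.6. By that measure no value for all protein-coding genes was computed. Shared peaks per 10 kb of Hist1 were 2.66 within its blocks, and with 1 library left out the peaks per 10 kb were 1.05 to 1.35 for Hist1 and 3.44 to 5.36 for Hist2, since all peaks of the other library then count. Shared peaks of the spans at a member's start numbered 63 with a window of 500 bp and 103 with 2500 bp, beside 86 in the main count. Pairs with a shared peak numbered 16 of 21 when starts up to 2000 bp apart were taken. GGGCGG was found in 18 members in the 150 bases before the start, and in 18 in the 300 bases before the coding start. Members with at least 50% repeated words numbered 10 with words of 76 bases, and stem-loop matches 65 in the 150 bases after the stop codon. Depth is unknown, and 2 libraries of 1 group allow no test; nothing in the labels says whether the cultures were differentiated separately. No paired analysis was possible because there is only 1 group.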
